A study of Mus musculus with 2 samples.

Results

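The leukocyte miRNAs described here are 10 mature miRNAs known from lymphoid and myeloid blood cells, of 1847 mature mouse miRNAs measured in serum extracellular vesicles (EVs), the membrane particles that cells shed into the blood. They were listed by name for that origin, with no limit on their values, as miR-142a-3p, miR-142a-5p, miR-150-5p, miR-150-3p, miR-155-5p, miR-146a-5p, miR-146b-5p, miR-223-3p, miR-223-5p and miR-342-3p, and all 10 were found in both libraries. One group was iFIRKO mice, labelled Adipoq-CreERT2 with Insr flox/flox, in which tamoxifen activates a Cre recombinase driven by the adiponectin promoter so that adipocytes lose the insulin receptor. The other was control mice, labelled WT, whereas the methods of the study describe controls with the floxed alleles and no Cre. Mice of both groups were male, were 7 weeks old when tamoxifen began at 100 mg/kg on each of 5 days, and were sampled on day 3 after the last dose. Each group had 1 library made from the pooled serum of several mice, so no spread between animals was measured, no test between genotypes was possible, and each interval below covers counting error in these 2 libraries only. The libraries are named as labelled, and no miRNA tells whether the receptor was deleted. The study describes miR-144-3p, miR-451a, miR-486a-3p and miR-16-2-3p as raised in iFIRKO serum EVs, by sequencing and by quantitative RT-PCR of individual serum samples. The RT-PCR levels were normalized to a reference miRNA or to a spike-in control. The study describes most other miRNAs as reduced by sequencing. In the deposited tables as labelled, the ratios of iFIRKO to control for these 4 miRNAs were 0.506, 0.409, 0.549 and 0.557, and most other miRNAs had a ratio above 1, so both directions are opposite to that description. The second direction depends on abundance. Outside the 10 leukocyte miRNAs, 1297 of 1349 miRNAs with a mean count of 10 to 100 had a ratio above 1. Among those whose mean count reached 1000, it was 47 of 110. The second direction also depends on the scaling of the libraries, as described below. Every direction below follows the labels, and would turn round if the labels were exchanged. The depth was 3817902 counts for control and 2233498 counts for iFIRKO.

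A miRNA gene is transcribed into a hairpin, from which a short duplex is cut. The strand loaded into an Argonaute protein, the guide, silences mRNAs that pair with its seed (bases 2 to 8), and the other strand, the passenger, is mostly degraded. miR-142 is made throughout the blood cell lineages, miR-223 mainly in granulocytes and monocytes, and miR-150 in mature lymphocytes, where Myb is a known target. miR-342 lies in the Evl gene and is known from lymphoid cells and macrophages. miR-155 and miR-146 are induced by immune activation, and miR-146 restrains NF-kB signaling through Traf6 and Irak1. Such miRNAs circulate in serum, and platelets also hold miR-223-3p, miR-142a-3p, miR-142a-5p, miR-150-5p and miR-146a-5p.

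The mature sequences, from RefSeq on GRCm38.p6, are given 5′ to 3′ with the seed in capitals, because the seed decides which of these miRNAs can act on the same targets. Of the 10 miRNAs, 9 had an entry, and miR-150-5p is named only. The guide strands with an entry were the following.
mmu-miR-223-3p: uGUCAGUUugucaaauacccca
mmu-miR-142a-3p: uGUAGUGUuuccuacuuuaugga
mmu-miR-146a-5p: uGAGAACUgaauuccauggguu
mmu-miR-146b-5p: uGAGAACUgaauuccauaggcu
mmu-miR-342-3p: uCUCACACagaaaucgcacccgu
mmu-miR-155-5p: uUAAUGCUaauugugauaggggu
The less abundant strands among the members were the following.
mmu-miR-142a-5p: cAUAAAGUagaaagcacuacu
mmu-miR-223-5p: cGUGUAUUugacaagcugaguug
mmu-miR-150-3p: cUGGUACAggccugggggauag

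Among these 9, only miR-146a-5p and miR-146b-5p shared a seed (GAGAACU), and no other member shared its seed with any of the 1596 listed miRNAs that had a sequence. miR-146a-5p and miR-146b-5p, both 22 bases long, differed by the substitutions G18A and U21C, counted from the 5′ end with the base of miR-146a-5p first. How the authors assigned reads of near-identical miRNAs is not given in the sources used here, so the division between these miRNAs is uncertain. All 6 printed guides began with U, and the 3 printed less abundant strands began with C. Of the 1596 miRNAs with a sequence, 638 (40.0%) began with U.

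The hairpins lie apart in the genome (GRCm38). Mir142 is found on chromosome 11 (87756864 to 87756927, plus strand), in an intron of its host RNA Mir142hg, and Mir142b overlaps it on the opposite strand (87756841 to 87756955). Mir146, the hairpin of miR-146a, lies on the same chromosome (43374397 to 43374461, minus strand) outside other annotated genes. Mir146b lies on chromosome 19 (46342762 to 46342870, plus strand), in an intron of Mfsd13a. Mir155 lies on chromosome 16 (84714140 to 84714204, plus strand), in an exon of Mir155hg. Mir223 lies on the X chromosome (96242817 to 96242926, plus strand), in an exon of the noncoding gene F630028O10Rik. Mir342 lies on chromosome 12 (108658620 to 108658718, plus strand), in an intron of Evl, and Mir150 lies on chromosome 7 outside other annotated genes.

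To see how much of the vesicle miRNA these leukocyte miRNAs made up, their counts were summed. Together they held 239359 counts in the control library, 6.27% of that library (95% Wilson interval 6.25 to 6.29), and 126943 counts in the iFIRKO library, 5.68% (95% Wilson interval 5.65 to 5.71). As labelled, their combined level was slightly lower in the iFIRKO library, with a ratio of 0.907 (95% interval 0.900 to 0.913), and with the labels exchanged the ratio would be 1.10 (95% interval 1.10 to 1.11). miR-223-3p and miR-142a-3p held 4.35% and 3.77% of the respective libraries, a ratio of 0.867 (95% interval 0.860 to 0.874). The other 8 miRNAs held 1.92% and 1.91%, a ratio of 0.996 (95% interval 0.984 to 1.01), a sum of 6 miRNAs below and 2 above a ratio of 1. The combined ratio was 0.965 without miR-223-3p and 0.890 without miR-142a-3p. Fewer vesicles from a cell type and less of a miRNA per vesicle cannot be told apart in such pools. The values are also shares of a library, so they change when other abundant miRNAs change. miR-122-5p alone had 417919 counts in the control library and 417108 in the smaller iFIRKO library. miR-16-5p went the other way, with 994113 and 426219 counts. The part of such miRNAs in the combined ratio was not tested.

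Levels of single miRNAs are given as counts per 1000000 counts of the library (CPM), and mature miRNAs need no length correction. Counts under 10 were all set to the lowest value of a library, called the floor here, and all 10 miRNAs were above it. The levels spanned about 3 orders of magnitude, as the plot of levels by miRNA shows. miR-223-3p was at 22137 CPM in the control library and at 17688 CPM in the iFIRKO library. miR-142a-3p was at 21348 and 20023 CPM. These myeloid and pan-hematopoietic miRNAs led the list and stood at ranks 7 and 8 of all miRNAs in the control library, and at ranks 11 and 8 in the iFIRKO library. Their order changed between the libraries: miR-223-3p exceeded miR-142a-3p by a factor of 1.04 (95% interval 1.03 to 1.05) in the control library, and miR-142a-3p exceeded miR-223-3p by a factor of 1.13 (95% interval 1.12 to 1.15) in the iFIRKO library.

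**Figure D1:**
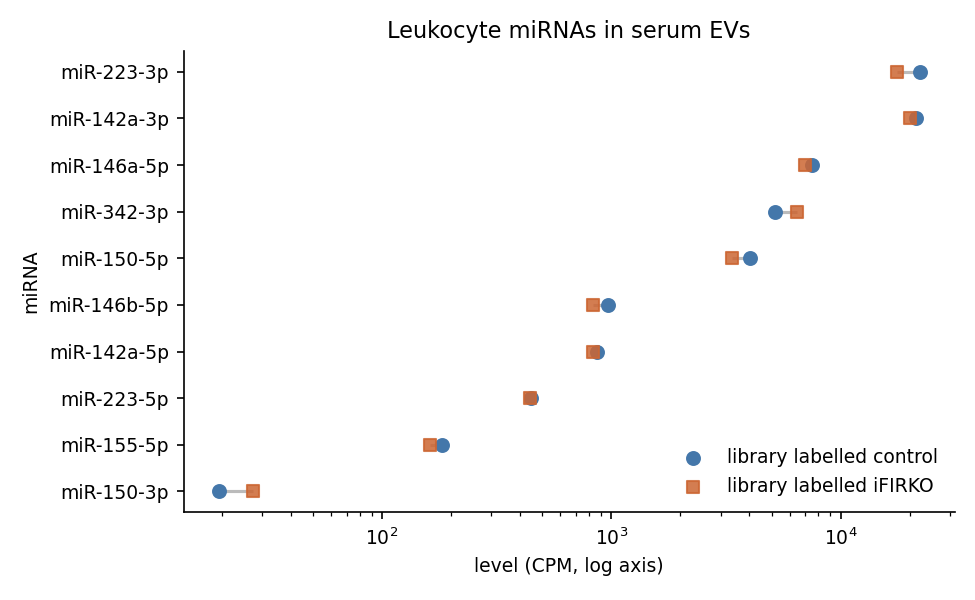
Level of each leukocyte miRNA in CPM (log axis) in the control library (circles) and the iFIRKO library (squares), 1 library each. miR-223-3p and miR-142a-3p lie between 17688 and 22137 CPM, miR-150-3p lies lowest at 19.4 and 27.3 CPM, and the symbols of most miRNAs nearly touch.

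The middle of the range was taken by immune regulators and lymphocyte miRNAs. miR-146a-5p was at 7521 CPM in the control library and 6988 CPM in the iFIRKO library, and miR-342-3p was at 5180 and 6480 CPM. miR-150-5p was at 4033 and 3362 CPM. Among these, only miR-342-3p was higher in the iFIRKO library, where it came to within a factor of 1.08 (95% interval 1.05 to 1.10) of miR-146a-5p, from 1.45 (95% interval 1.43 to 1.48) in the control library.

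The remaining 5 miRNAs were below 1000 CPM in both libraries. miR-146b-5p was at 966 CPM in the control library and 836 CPM in the iFIRKO library, and miR-142a-5p was at 862 and 831 CPM. In the iFIRKO library these neighbors could not be ordered, since the 95% interval of their ratio, 0.943 to 1.07, included 1, and this was the only neighboring pair in either library of which that was true. miR-223-5p was at 446 and 440 CPM, and miR-155-5p was at 182 and 162 CPM. miR-150-3p was lowest, with 74 counts (19.4 CPM) and 61 counts (27.3 CPM).

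The difference between the libraries was then examined for each miRNA as the ratio of the iFIRKO library to the control library. None of the 10 passed the 1.5-fold threshold of the study in either direction, whereas over all 1847 miRNAs, with the libraries as labelled, 66.3% were more than 1.5-fold higher and 3.03% were more than 1.5-fold lower. The median count before scaling was 37 in the control library and 47 in the iFIRKO library, although the control library was 1.71-fold deeper. The part of depth in these shares was not tested. Ratios depended on abundance, so the closer background is the 118 miRNAs whose mean count reached 1000, to which 8 of the 10 belonged. Of these 118 miRNAs, 2.54% were more than 1.5-fold higher and 9.32% were more than 1.5-fold lower, so a count of 0 among 8 is near this background. The median log2 ratio was -0.10 for the 10 leukocyte miRNAs, 0.88 for all miRNAs and -0.06 for the 110 other miRNAs whose mean count reached 1000. The 10 log2 ratios ran from -0.32 to 0.49, and the central 50% of those 110 ran from -0.42 to 0.15, where 47 were above and 63 below a ratio of 1.

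**Figure D2:**
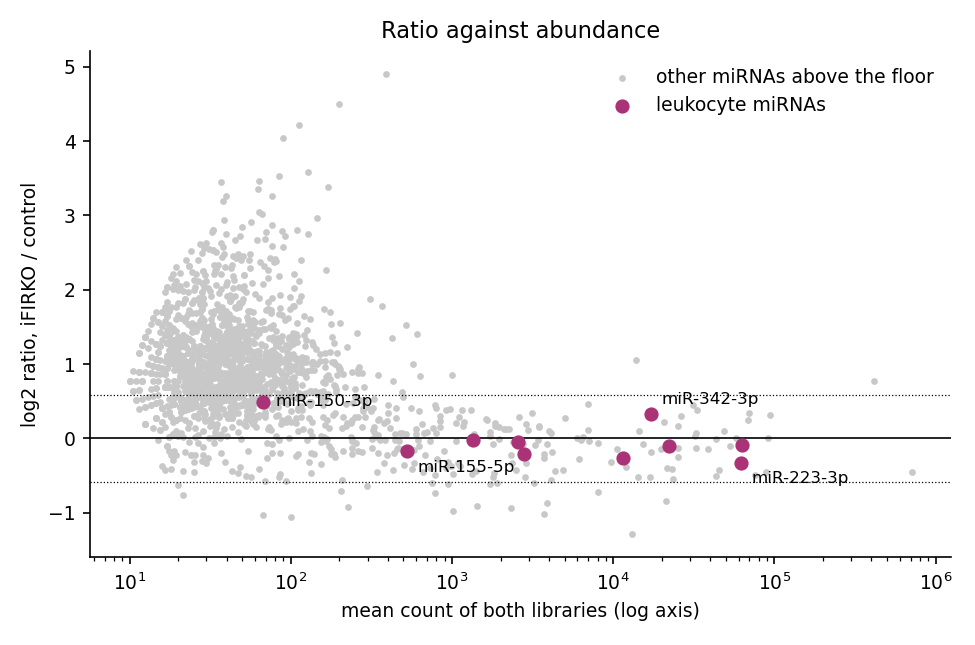
Log2 ratio of the iFIRKO library to the control library against the mean count of both libraries (log axis) for all miRNAs above the floor of 10 counts in both, with the 10 leukocyte miRNAs in color. Dotted lines mark 1.5-fold, and all 10 leukocyte miRNAs lie between them, while most miRNAs with a mean count under 100 lie above 0.

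Of the 10 miRNAs, 8 had a ratio below 1, and for 5 of them the interval lay below 1. These 5 were among the 8 members whose mean count reached 1000. For the 110 other miRNAs of that abundance, the interval lay below 1 for 54 and above 1 for 40. Over all 1847 miRNAs it lay below 1 for 114 and above 1 for 1164. miR-223-3p, with 84515 and 39506 counts, had the lowest ratio, 0.799 (95% interval 0.790 to 0.809). It was followed by the lymphocyte miRNA miR-150-5p, with 15397 and 7508 counts and a ratio of 0.834 (95% interval 0.811 to 0.857). Both miR-146 paralogs were also lower, with ratios of 0.929 for miR-146a-5p (95% interval 0.911 to 0.948) and 0.865 for miR-146b-5p (95% interval 0.818 to 0.915). miR-142a-3p had 81504 and 44721 counts and a ratio of 0.938 (95% interval 0.927 to 0.949).

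miR-342-3p was the only member whose interval lay above 1, with 19776 and 14472 counts and a ratio of 1.25 (95% interval 1.22 to 1.28). Of the 110 other miRNAs of that abundance, 100 (90.9%) had a lower ratio than miR-342-3p. For the lowest member, miR-223-3p, 36 of the 110 (32.7%) had a lower ratio. Both thus lay within the spread of other abundant miRNAs. miR-155-5p was the only member whose mean count lay between 100 and 1000, and had a log2 ratio of -0.17 beside a median of 0.54 for the 301 others of that class, of which 39 (12.96%) had a lower ratio. miR-150-3p was the only member whose mean count lay under 100, and had a higher ratio than 252 of the 1349 others between 10 and 100 (18.7%).

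The intervals of the remaining 4 included 1. These were miR-142a-5p with a ratio of 0.963 (95% interval 0.910 to 1.02), miR-223-5p with 0.986 (95% interval 0.911 to 1.07), miR-155-5p with 0.889 (95% interval 0.781 to 1.01) and miR-150-3p with 1.41 (95% interval 0.987 to 2.005). For miR-155-5p, which rested on 696 and 362 counts, and miR-150-3p, no difference was detectable at this depth.

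**Figure D3:**
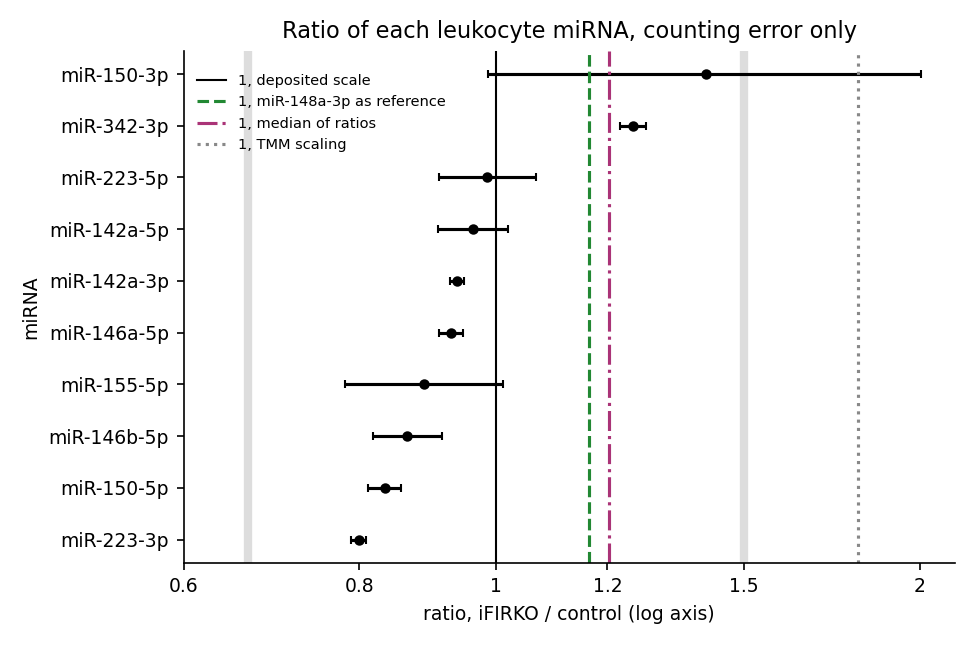
Ratio of the iFIRKO library to the control library for each leukocyte miRNA (log axis), with 95% intervals from counting error. The solid line marks a ratio of 1 as deposited, the broken lines mark where a ratio of 1 would lie with miR-148a-3p as reference (1.16), with the median of ratios (1.202) and with TMM scaling (1.81), and the gray bands mark 1.5-fold; miR-342-3p lies above and miR-223-3p, miR-150-5p, miR-146b-5p, miR-146a-5p and miR-142a-3p lie below the solid line beyond their intervals.

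The direction of a ratio depends on the scaling of the libraries. The values are shares of a library, and the trimmed mean of M values (TMM) lowers every log2 ratio by 0.85. With TMM scaling all 10 miRNAs had a ratio below 1, miR-342-3p and miR-150-3p included, and 8 were more than 1.5-fold lower. Among miRNAs whose mean count reached 1000, these were 7 of the 8 members and 95 of the 110 others (86.4%), and over all miRNAs the share was 19.5%. The median of ratios was taken over miRNAs whose mean count reached 100. With it, or with miR-148a-3p (ratio 1.16, 95% interval 1.14 to 1.19), the reference miRNA of the study, 8 members stayed below and 2 above a ratio of 1. miR-223-3p passed 1.5-fold lower with the median of ratios (log2 ratio -0.59). With that scaling, 36 of the 110 others whose mean count reached 1000 (32.7%) were also more than 1.5-fold lower. Over all miRNAs the share was 6.12%. Over all 1847 miRNAs the median ratio was 1.84, near the TMM factor of 1.81 and above the ratio of every member.

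A comparison that no scaling can change is that between miRNAs of the same library. The level of each of the 10 miRNAs relative to each other was computed in both libraries, 45 pairs in all, and for 29 pairs the 95% interval of the change in relative level did not include 1. Intervals are narrow at this depth: for the 110 other miRNAs whose mean count reached 1000, the ratio interval lay below 1 for 54 and above 1 for 40. The share among pairs of other miRNAs was not computed, so the count of pairs does not set the members apart. For miR-342-3p the interval excluded 1 in 8 of its 9 pairs, all but that with miR-150-3p, and miR-342-3p was relatively higher in the iFIRKO library in each of the 8. These pairs share the counts of miR-342-3p and are not separate results. The interval also excluded 1 in 8 of 9 pairs of miR-223-3p, and in 7 of 9 for each of miR-150-5p, miR-146b-5p and miR-150-3p. miR-342-3p exceeded miR-150-5p by a factor of 1.28 in the control library and 1.93 in the iFIRKO library, a change of 1.501-fold (95% interval 1.45 to 1.55). miR-223-3p exceeded miR-342-3p by factors of 4.27 and 2.73, a change of 0.639 (95% interval 0.623 to 0.655). Of the 10-member sum, miR-342-3p made up 8.26% in the control library and 11.4% in the iFIRKO library, and miR-223-3p made up 35.3% and 31.1%.

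The relation between the myeloid and the lymphocyte miRNA changed less. miR-223-3p exceeded miR-150-5p by a factor of 5.49 in the control library and 5.26 in the iFIRKO library, a change of 0.959 (95% interval 0.930 to 0.988). miR-142a-3p exceeded miR-146a-5p by factors of 2.84 and 2.87, a change of 1.01 (95% interval 0.987 to 1.03) that lay within counting error. The paralogs miR-146a-5p and miR-146b-5p stood at factors of 7.78 and 8.36, a change of 1.07 (95% interval 1.01 to 1.14). By the counts as assigned, miR-146a-5p was the more abundant paralog in both libraries, though their division is uncertain.

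The balance between the arms of a hairpin was examined for all 7 hairpins, with the arms that were not members (miR-155-3p, miR-146a-3p, miR-146b-3p and miR-342-5p) added. Each hairpin had the same dominant arm in both libraries, and the less abundant arm made up between 0.0696% and 3.98% of both arms where it was above the floor. For Mir142, miR-142a-5p made up 3.88% (95% Wilson interval 3.75 to 4.01) in the control library and 3.98% (95% Wilson interval 3.81 to 4.16) in the iFIRKO library. The excess of miR-142a-3p over miR-142a-5p was thus 24.8-fold and 24.1-fold, a change of 0.973 whose 95% interval (0.918 to 1.03) included 1.

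Mir223, Mir150 and Mir146b held relatively more of the less abundant arm in the iFIRKO library. The share of other hairpins with such a change was not computed, so the change does not set these hairpins apart. For Mir223, miR-223-5p made up 1.98% (95% Wilson interval 1.89 to 2.07) and 2.43% (95% Wilson interval 2.28 to 2.58), and the excess of miR-223-3p changed from 49.6-fold to 40.2-fold, by 0.810 (95% interval 0.748 to 0.878). For Mir150, the excess of miR-150-5p over miR-150-3p was 208-fold and 123-fold, a change of 0.592 (95% interval 0.415 to 0.845). For Mir146b, miR-146b-3p had 18 and 23 counts, and the excess of miR-146b-5p was 205-fold and 81.2-fold, a change of 0.396 (95% interval 0.201 to 0.769). For Mir146 and Mir342 the intervals of the change included 1. Mir146 changed by 0.572 (95% interval 0.290 to 1.13), with 20 and 19 counts of miR-146a-3p. Mir342 went the other way, with a change of 1.23 (95% interval 0.642 to 2.45) and 27 and 16 counts of miR-342-5p.

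miR-155-3p was below the floor of 10 counts in the control library and had 15 counts in the iFIRKO library. The excess of miR-155-5p over miR-155-3p was therefore more than 69.6-fold in the control library and was 24.1-fold in the iFIRKO library. The less abundant arms of Mir150, Mir146, Mir146b and Mir342 had mean counts from 10 to 100, and the 1349 non-members of that class had a median log2 ratio of 1.01. Of these arms, only miR-146b-3p (log2 ratio 1.13) was above that median, and miR-150-3p (0.49), miR-146a-3p (0.70) and miR-342-5p (0.02) were below it. The part of this shift of low miRNAs in the arm balance was not tested.

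**Figure D4:**
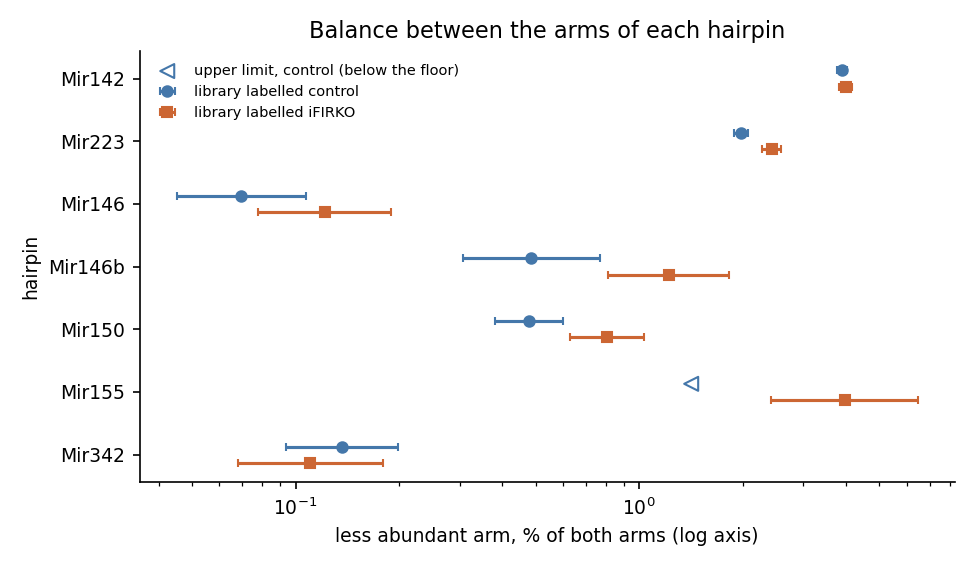
Less abundant arm of each hairpin as a percentage of both arms (log axis) in each library, with 95% Wilson intervals. The open triangle is the upper limit of 1.42% for Mir155 in the control library, where miR-155-3p was below the floor, and the intervals of the libraries overlap for Mir142, Mir146 and Mir342 but not for Mir223, Mir146b and Mir150.

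The opposite strand of Mir142 was listed as a miRNA of its own, and its sequence is shown because it resembles both arms of Mir142.
mmu-miR-142b: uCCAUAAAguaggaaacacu
It is contained in the reverse complement of miR-142a-3p. Its 20 bases also matched a stretch of the Mir142 hairpin at 17 positions, and 18 bases of that stretch belong to miR-142a-5p. The differences were C1U, A13G and G16A, counted from the 5′ end of the stretch with the base of the Mir142 hairpin first. miR-142b had 5027 counts (1317 CPM) in the control library and 2448 counts (1096 CPM) in the iFIRKO library, a ratio of 0.832 (95% interval 0.793 to 0.874). It thus exceeded miR-142a-5p by factors of 1.53 and 1.32. The mismatches allowed in assigning reads are not given in the sources used here, so the separate values of miR-142b and miR-142a-5p are uncertain.

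Other miRNAs studied in lymphoid and myeloid cells, which many other cells also make, were listed for comparison. Of the 14 miRNAs of that list, none passed 1.5-fold in either direction, 8 had a ratio above 1 and 6 below 1, and their median log2 ratio was 0.01. miR-29a-3p was the most abundant of them, with 20796 CPM in the control library and 26316 CPM in the iFIRKO library, and had the highest ratio, 1.27 (95% interval 1.25 to 1.28). miR-147-3p, with 99 and 39 counts, had the lowest ratio, 0.673 (95% interval 0.452 to 0.985). By level in both libraries, the 3 non-members most like miR-142a-3p were let-7b-5p, miR-140-3p and let-7c-5p, at distances of 0.19, 0.33 and 0.36 on the log2 CPM scale, which with 2 libraries describes abundance only.

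miRNAs of other sources were present in both libraries and differed between them. The 11 miRNAs listed as erythroid, from miR-144-5p at 332 CPM to miR-16-5p at 260382 CPM in the control library, summed to 32.0% of that library and 23.0% of the iFIRKO library, and all 11 had a ratio below 1 as labelled. Most of that sum was miR-16-5p alone, with 994113 of 1222909 counts in the control library and 426219 of 514472 in the iFIRKO library. The share of red cell vesicles was thus not measured. The 4 liver miRNAs summed to 12.1% and 20.2%, and all 4 had a ratio above 1. The 6 miRNAs abundant in platelets summed to 8.81% and 7.86%, and 5 of them had a ratio below 1. None of these 21 miRNAs was at the floor. As background, 47 of the 110 non-members whose mean count reached 1000 had a ratio above 1 and 63 below. Over all 1847 miRNAs, 1627 had a ratio above 1 and 220 below. With TMM scaling the liver miRNAs too had ratios below 1. The part of red cell, liver and platelet vesicles in the leukocyte values was not tested.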

How the data were processed

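Per the labels and the methods of the study, libraries of serum EV RNA were prepared with a QIAseq kit for miRNA, and the authors used the GeneGlobe Data Analysis Center (Qiagen) for analysis. The genome build was mm10, and the aligner, miRNA annotation and use of molecular identifiers are not given in the sources used here. The deposited tables hold 1 normalized signal per miRNA. Divided by the lowest value of its library, every value came out whole (100.0%, tolerance 0.1), so counts and depths were recovered from them, and CPM is the deposited signal multiplied by 1000000. Listed miRNAs held 99.3% and 99.1% of the depths. The lowest value (76 and 35 miRNAs) stood for counts under 10, since no count from 2 to 9 occurred.

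Intervals are 95%: Clopper-Pearson for ratios, Wilson for shares, exact conditional for changes in relative level. They treat each count as an independent molecule, and whether the counts are reads or unique molecules is not given. If they are reads, copies of the same molecule would make the intervals too narrow. Recovery and ratio intervals were run on counts simulated with counting error only, so copied reads and spread between animals were not tested. With 1 library per group, no p-value was computed. Members, lists and the naming rule (members, their other arms, miR-142b, miR-148a-3p, the 3 nearest non-members, and the most abundant and extreme related miRNAs) were chosen with earlier results of these data known. Single pairs and the pair miR-223-3p and miR-142a-3p were chosen after their values were seen. Alternatives were 4 scalings (TMM from edgeR 4.0.16 in R 4.3.3), 1 CPM added, the floor at 10 counts, a mean count of at least 100, a 2-fold threshold and summed arms. Hairpins were placed with GENCODE on GRCm38. Computation used Python 3.11.15, numpy 2.4.6, scipy 1.17.1 and pandas 2.3.3.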

Additional observations from a re-analysis of the deposited data

How the results depend on the processing

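No paired analysis was possible because there was only 1 library for each genotype, and for the same reason no library could be left out. The number of members more than 1.5-fold higher in the iFIRKO library was 0 under every alternative run, and the number more than 1.5-fold lower was 0 except for 1 with the median of ratios and 8 with TMM scaling. Over all miRNAs, 51.8% were more than 1.5-fold higher and 6.12% lower with the median of ratios. With TMM scaling the shares were 21.0% and 19.5%. The median log2 ratio of the members was -0.37 under the median of ratios, -0.32 when scaled to miR-148a-3p and -0.95 under TMM scaling, and the combined ratio was 0.754, 0.779 and 0.502 in the same order. These shifts follow from 1 factor applied to all miRNAs. Summing the member arms of a hairpin gave a median of -0.17, as did taking the more abundant arm of each hairpin, an alternative chosen after seeing the data; both leave 7 values. The combined ratio was 0.890 without miR-142a-3p and, also chosen after seeing the data, 0.965 without miR-223-3p. Equal totals, 1 CPM added and the floor at 10 counts left each of the 10 log2 ratios within its counting interval, and 1 count added to each arm left the 6 computed arm balances within theirs. Depth limits miR-150-3p, miR-155-5p and the arms under 100 counts most.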
